A study of Mus musculus with 6 samples.

Results

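The ETS group described here comprised 10 transcription factor genes, *Ets1*, *Ets2*, *Elk1*, *Elk3*, *Elf1*, *Elf2*, *Fli1*, *Erg*, *Gabpa* and *Etv6*, of 32493 genes counted by RNA-seq in cultured mouse neural stem cells (NSCs). The genes were listed by symbol and each had 1 row of the count table. They were chosen on measured values, since the difference of *Ets1* between the genotypes was already known from the same libraries, so their own differences are given as a description with no test. The NSCs came from the cortex of E14.5 embryos and were expanded as cultures with EGF and bFGF before RNA was taken. The conditional knockout (cko) embryos carried loxP-flanked miR-151 alleles and the Emx1-IRES-Cre driver, which is active in the dorsal telencephalon, on a C57BL/6J background. The control (ctrl) embryos carried the same loxP-flanked alleles without Cre and are called wt in the sample labels. Of 3 ctrl and 3 cko columns, ctrl 2 equalled the mean of ctrl 1 and ctrl 3, rounded up, in all 32493 genes, so ctrl 1, ctrl 3 and the 3 cko libraries were used.

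ETS factors share a DNA-binding domain, the ETS domain, that recognises a GGAA core, and they differ in the bases preferred around it and in the proteins they bind. Many are phosphorylated by the ERK kinases downstream of growth factor receptors, so that the family connects EGF and FGF signals to transcription. ETS1 is best known from lymphocytes, endothelium and invasive cells, FLI1 and ERG from blood and endothelium, the ELK proteins as partners of SRF at immediate early genes, and GABPA as a regulator of housekeeping and mitochondrial genes.

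The letters of the core these proteins read were also searched for in front of the genes themselves. RefSeq windows (GRCm38.p6) of 300 bases, from 250 before to 50 after a transcript start, were at hand for 8 of the 10 genes, not for *Ets1* and *Fli1*, and gave 12 windows. The letters GGAA, searched on both strands, were in all 12 windows, and in 96% of 32841 windows of all genes. The longer CCGGAA, which contains GGAA and resembles the site preferred by GABP, was in 1 of the 12, that of *Gabpa* itself, and in 14.9% of all windows, whereas CCGGAAGT was in 0 of the 12 and in 3.89% of all. Short stretches of the *Gabpa* window, the only one with the longer core, and of the window of *Ets2*, the closest relative of *Ets1*, are given 5′ to 3′ on the minus strand, with the match in capitals. The *Gabpa* stretch is chr16:84835020-84835049 and its match ends 86 bases before the start, and the *Ets2* stretch is chr16:95702379-95702406 and its match ends 1 base before the start.
Gabpa: tagctgagggacCCGGAAgcacttaccctc
Ets2: gGGAAccgggggaggggacagcaggggt
These matches describe letters, and binding was not measured.

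The 5 libraries held between 17883796 and 23335736 counted reads. In the table a count of 3, taken as the floor of detection, corresponded to 0.129 to 0.168 CPM (the count scaled by the library's effective total). All 10 NSC markers examined, including *Sox2*, *Nes* and *Pax6*, were detected. At an adjusted p under 0.05 by edgeR's test, 3 were higher in cko (*Nes*, *Hes5* and *Prom1*, log2 fold changes of 0.98, 0.93 and 0.70). Another 2 were lower (*Hes1* at -1.04 and *Slc1a3* at -0.79), beside 7.86% higher and 8.57% lower among all tested genes. The part of these markers in the *Ets1* difference was not tested. The targeted miR-151 was not analysed here, so the genotype labels were not checked on it. The libraries also differed in sex-linked transcripts. *Xist*, transcribed from the inactive X chromosome, was at 2889 and 2557 CPM in ctrl and 787, 849 and 894 CPM in cko, and the Y-linked *Kdm5d* was at 25.1 and 27.0 CPM in ctrl and 68.9, 69.1 and 67.6 CPM in cko. *Ddx3y*, *Eif2s3y* and *Uty* also passed the test in the cko direction of *Kdm5d*, so that the sex make-up of the cultures and the genotype cannot be told apart in any difference below. Nothing in the labels says whether the replicates were separate embryos or cultures, and p-values therefore measure the spread between these libraries, which may be technical.

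*Ets1* was about 4 times as abundant in cko as in ctrl NSCs, and no other gene of the group differed by a comparable amount. The gene (ENSMUSG00000032035, plus strand, GRCm38 chromosome 9, 32636221 to 32757820) shared no exon bases with another annotated gene. Its raw counts were 1393 and 925 in ctrl and 3633, 5345 and 4948 in cko. After normalization these were 60.8 and 49.4 CPM in ctrl 1 and ctrl 3, and 203, 229 and 227 CPM in cko 1, cko 2 and cko 3. The 3 cko libraries lay within a narrow band far above both ctrl libraries.

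The mean normalized *Ets1* level was 55.1 ± 8.13 CPM in ctrl (SD, n = 2) and 220 ± 14.45 CPM in cko (SD, n = 3), a ratio of 3.99. The fitted log2 fold change, cko minus ctrl, was 1.996 ± 0.12 (SE), with a 95% interval of 1.73 to 2.27, or 3.31 to 4.81 fold. Of the 16710 genes tested, 41 had a higher fitted log2 fold change. Over 11 other ways of fitting the counts the value of *Ets1* ran from 1.86, without ctrl 3, to 2.15, without ctrl 1. In bulk RNA a change in the number of cells expressing a gene and a change in its RNA per cell cannot be told apart.

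**Figure D1:**
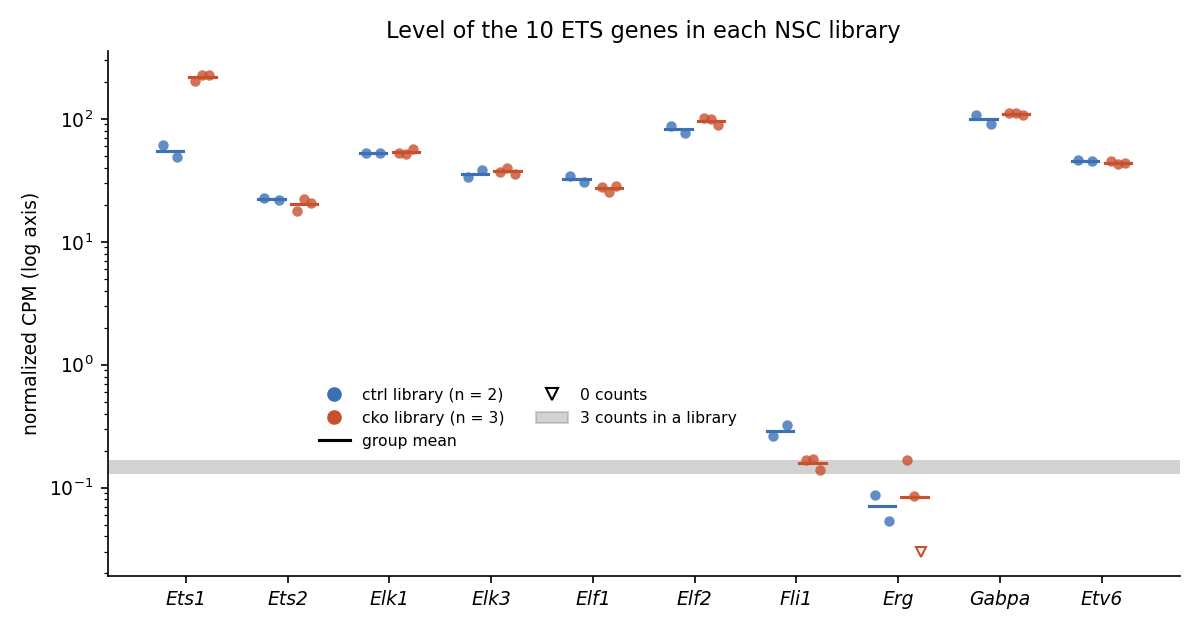
Normalized CPM (log axis) of the 10 ETS genes in the 2 ctrl libraries (blue) and 3 cko libraries (orange), with group means as bars and the level of 3 counts in a library as a grey band. *Ets1* lies at 49.4 and 60.8 CPM in ctrl and at 203 to 229 CPM in cko, while *Fli1* lies above the band in ctrl and near it in cko, and *Erg* lies near or under it.

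*Ets2*, the paralogue of *Ets1*, stood at 22.7 and 21.9 CPM in ctrl and at 17.8, 22.2 and 20.6 CPM in cko. The ctrl values fell close to the upper cko values, and the groups overlapped. The log2 fold change was -0.14 ± 0.13 (SE), and its 95% interval, -0.43 to 0.16, did not reach the values of *Ets1*.

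The paralogues sit in a matching arrangement in the genome, each beside an ERG-family gene. *Fli1* lay 93359 bp from *Ets1* on chromosome 9, and *Erg* lay 115481 bp from *Ets2* on chromosome 16. In both pairs the genes were on opposite strands with their start sites facing each other, with 0 protein-coding genes in the gap. *Fli1* had 6 and 6 counts in ctrl and 3, 4 and 3 counts in cko, and *Erg* had 2 and 1 counts in ctrl and 3, 2 and 0 counts in cko. Every cko count of *Fli1* was below both ctrl counts, while *Erg* overlapped and did not exceed the floor of 3 counts in any library. Both were removed by the filter on low counts, and no fold change was fitted.

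The ternary complex factors *Elk1* and *Elk3*, which bind DNA with SRF, showed small differences with intervals on both sides of 0. *Elk1*, on the X chromosome, was at 53.0 and 52.4 CPM in ctrl and at 52.9, 51.4 and 56.9 CPM in cko, a log2 fold change of 0.03 ± 0.08 (SE; 95% interval -0.16 to 0.22). *Elk3*, a net repressor that ERK signalling can turn into an activator, was at 33.6 and 38.3 CPM in ctrl and at 36.8, 39.8 and 35.7 CPM in cko, a log2 fold change of 0.06 ± 0.10 (SE; 95% interval -0.17 to 0.29). For both genes the libraries of the genotypes overlapped, and the sign turned with 1 library left out (-0.027 for *Elk1* without cko 3, -0.04 for *Elk3* without ctrl 1).

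The E74-like factors *Elf1* and *Elf2* had small differences in opposite directions. *Elf1* was at 34.2 and 30.6 CPM in ctrl and at 28.1, 25.6 and 28.4 CPM in cko, so that every cko library was below both ctrl libraries. Its log2 fold change was -0.24 ± 0.10 (SE), with a 95% interval, not corrected for the number of genes, of -0.48 to -0.0064. *Elf2* was at 88.2 and 76.9 CPM in ctrl and at 101, 99.1 and 88.8 CPM in cko, with the lowest cko library just above the highest ctrl library. Its log2 fold change was 0.22 ± 0.10 (SE; 95% interval -0.0013 to 0.45).

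*Gabpa*, the DNA-binding subunit of GABP, was the most abundant gene of the group in ctrl per length of exon. It was at 107 and 91.2 CPM in ctrl and at 112, 111 and 108 CPM in cko, and the cko libraries, although above both ctrl libraries, were separated from ctrl 1 by less than the distance between the ctrl libraries. The log2 fold change was 0.16 ± 0.09 (SE; 95% interval -0.046 to 0.36), and it was 0.05 without ctrl 3 and 0.26 without ctrl 1. *Etv6*, a repressor with an oligomerising pointed domain, was at 46.3 and 45.1 CPM in ctrl and at 45.2, 43.2 and 44.0 CPM in cko, overlapping in 1 library, with a log2 fold change of -0.05 ± 0.08 (SE; 95% interval -0.23 to 0.13).

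Small parts of the exons of 6 of these genes are shared with a neighbouring gene, from 1.41% of the bases of *Elk1* (with *Uxt*) to 6.98% of *Gabpa* (with *Atp5j*), and the counting mode is not given in the sources used here. Of the 10 genes, 8 passed the filter on low counts, and 1 of these 8, *Ets1*, was under an adjusted p of 0.05, which is no test of a gene chosen on this contrast, beside 16.4% of all tested genes (7.86% higher and 8.57% lower in cko). The genotypes did not overlap in 4 of the 8 (*Ets1*, *Elf1*, *Elf2* and *Gabpa*), beside 49.7% of all tested genes. As *Ets1* was known from this contrast when the genes were listed, nothing is read from these shares. The median log2 fold change of the 8 was 0.04, beside -0.0026 for all tested genes.

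**Figure D2:**
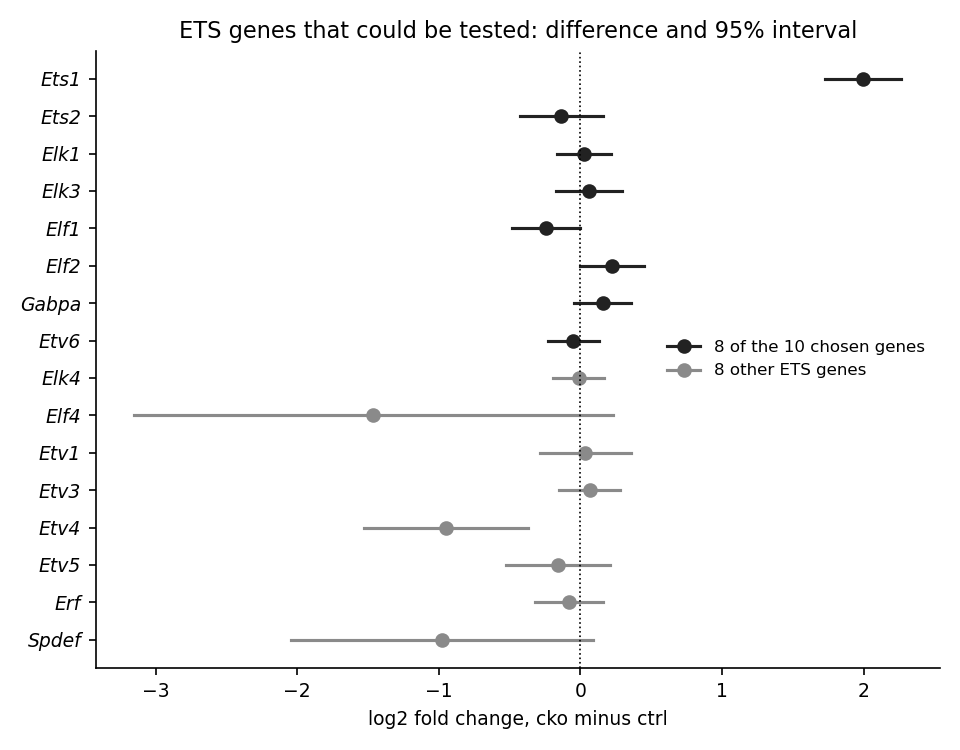
Fitted log2 fold change (cko minus ctrl, 2 ctrl and 3 cko libraries) with its 95% interval for the 16 ETS genes that passed the filter on low counts, 8 of the 10 chosen genes in black and 8 other ETS genes in grey. *Ets1* lies at 1.996, the other 7 black points lie between -0.24 and 0.22, and the widest grey interval is that of the low-count *Elf4*.

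To compare levels between genes, normalized CPM was divided by the merged length of all annotated exons of the gene, in kb. Which transcripts these cells expressed was not examined. The order of genes and their shares depend on this length, and the ranges over libraries do not cover an error in it. On this scale *Ets1* moved from 6.50 CPM per kb in ctrl, the 11th of 16 tested ETS genes, to 25.9 CPM per kb in cko, the 2nd after *Etv5*. In ctrl its libraries did not overlap those of its neighbours in the order, *Etv6* at 7.64 and *Elf1* at 4.81 CPM per kb. In cko they did not overlap those of *Etv5* at 47.7 or *Erf* at 21.4 CPM per kb. Among the chosen genes *Gabpa* was the highest in ctrl, at 17.4 CPM per kb, and *Ets1* was the highest in cko.

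Among the chosen genes below *Gabpa*, the order in ctrl ran *Elk1* (9.80 CPM per kb), *Elf2* (8.63), *Elk3* (7.90), *Etv6* (7.64), *Ets1*, *Elf1* and *Ets2* (3.85 CPM per kb), and the libraries of *Elf2*, *Elk3* and *Etv6* overlapped from one gene to the next. In cko, *Elf2* (10.1 CPM per kb) and *Elk1* (9.98 CPM per kb) overlapped, and *Elk3* and *Etv6* kept separate ranges below them. *Elf1* (4.06 CPM per kb) overlapped *Ets2* (3.50 CPM per kb). With *Gabpa* included and *Ets1* left aside, the order of the means of these 7 genes differed between the genotypes in the places of *Elf2* and *Elk1* alone. Those 2 genes overlapped in cko.

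*Ets1* made up 3.84% and 2.58% of the summed length-scaled level of all ETS genes in ctrl 1 and ctrl 3, and 12.5%, 12.8% and 13.02% in cko 1, cko 2 and cko 3. The summed level of the other 9 chosen genes was 62.0 and 58.2 CPM per kb in ctrl and 63.1, 63.1 and 61.9 CPM per kb in cko. With *Ets1* left out, all ETS genes summed to 180 and 220 CPM per kb in ctrl and to 169, 184 and 179 CPM per kb in cko. The rest of the family thus overlapped between the genotypes in its sum.

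**Figure D3:**
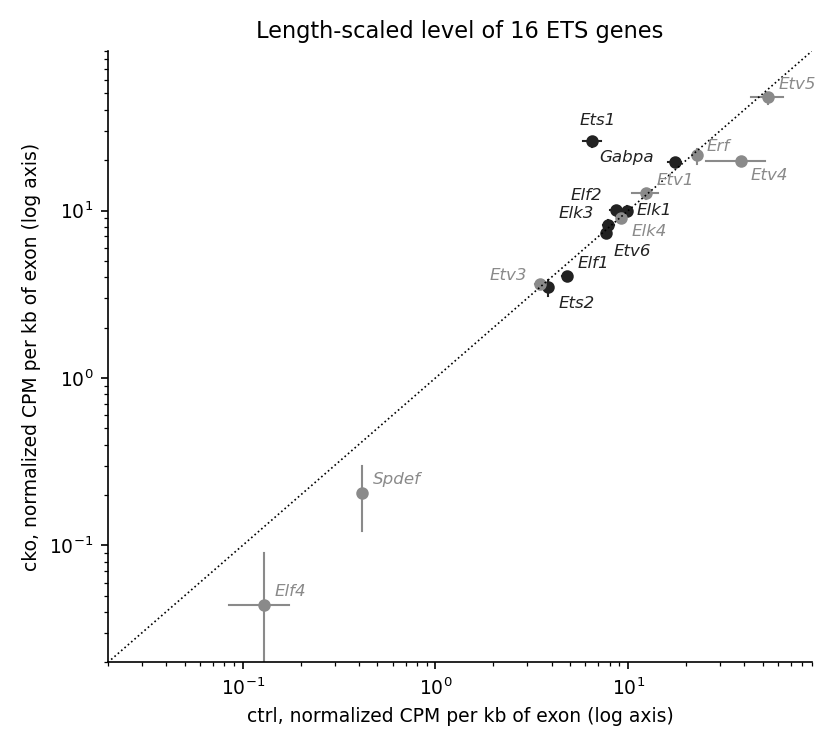
Mean normalized CPM per kb of exon in cko (vertical, log axis) against ctrl (horizontal, log axis) for 16 tested ETS genes, the chosen genes in black and the others in grey, with lines from the lowest to the highest library and a dotted line of equal level. *Ets1* lies above the dotted line at 6.50 in ctrl and 25.9 in cko, and *Etv4* lies below it.

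Of 17 other ETS genes, 15 had a row and 8 passed the filter on low counts. Their adjusted p is given from the fit over all genes, in which the chosen genes, described without a test, also took part. Among the 8 other ETS genes tested, 0 were called higher and 1 lower, beside 7.86% higher and 8.57% lower among all tested genes. *Etv4*, a PEA3 factor that is a transcriptional output of FGF signalling, was lower in cko, at 78.9 and 158 CPM in ctrl and 57.0, 64.0 and 62.9 CPM in cko (log2 fold change -0.95 ± 0.25 SE, adjusted p = 0.0404 by edgeR's quasi-likelihood test). The ctrl libraries differed from each other by more than ctrl 1 differed from the cko libraries. Without ctrl 3 the log2 fold change was -0.36, and without any 1 cko library the call was lost, with an adjusted p of up to 0.128. Its PEA3 relatives *Etv1* (0.03 ± 0.14 SE) and *Etv5* (-0.16 ± 0.16 SE), and *Elk4*, *Erf*, *Etv3*, *Elf4* and *Spdef*, did not pass the test. The leukocyte ETS genes *Spi1*, *Spib* and *Spic* had at most 3 counts in any library.

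Among the kinases that phosphorylate ETS proteins and the proteins that bind them, 20 genes were listed and 19 tested. Of these 0 were higher and 1, *Mrtfb*, was lower, beside 7.86% higher and 8.57% lower among all tested genes, with 5 at an unadjusted p under 0.05 and 2 called by DESeq2. *Mrtfb*, an actin-regulated coactivator of SRF that competes with ELK proteins for it, was at 36.4 and 44.6 CPM in ctrl and 28.0, 28.9 and 27.5 CPM in cko (log2 fold change -0.52 ± 0.11 SE, edgeR adjusted p = 0.0192). Without any 1 of the cko libraries the call was lost, with an adjusted p of up to 0.0915. *Srf* itself, and *Gabpb1* and *Gabpb2*, the partners of *Gabpa*, did not pass the test. *Runx1*, a DNA-binding partner of ETS1 named here after its values were seen, was at 0.917 and 3.31 CPM in ctrl and 0.448, 0.472 and 0.643 CPM in cko (log2 fold change -1.98 ± 0.57 SE, edgeR adjusted p = 0.0549, with a log2 fold change of -0.80 without ctrl 3).

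Of 16 genes described as regulated by ETS1 in other cell types, 10 were tested, 1 was higher and 0 were lower, a share near the 16.4% called among all tested genes. Their median log2 fold change was -0.29. *Tnc*, the matrix protein tenascin C, was the one that rose, from 421 and 591 CPM in ctrl to 707, 964 and 915 CPM in cko (log2 fold change 0.77 ± 0.18 SE, edgeR adjusted p = 0.0288). Its call was lost without cko 2 or without cko 3, with an adjusted p of up to 0.123. The metalloprotease genes *Mmp3*, *Mmp9* and *Mmp13* were too low to test, and *Plau*, *Timp1*, *Itgb3*, *Kdr*, *Angpt2*, *Nrp1*, *Cdkn1a*, *Tgfbr2* and *Spp1* did not pass the test. The endothelial cadherin *Cdh5* was listed at 0 in each library.

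Of 10 immediate early genes that ELK proteins and SRF regulate, 4 were lower in cko and 0 were higher, beside 8.57% lower and 7.86% higher among all tested genes. *Egr3* was at 9.35 and 6.88 CPM in ctrl and 0.951, 2.66 and 2.44 CPM in cko, a log2 fold change of -1.99 ± 0.38 (SE; edgeR adjusted p = 0.0146). *Egr2* was at 10.6 and 7.84 CPM in ctrl and 2.85, 3.39 and 3.35 CPM in cko, a log2 fold change of -1.53 ± 0.21 (SE; edgeR adjusted p = 0.0047). *Junb*, at 8.60 and 9.50 CPM in ctrl and 5.48, 4.84 and 5.06 CPM in cko, fell by 0.82 on the log2 scale (edgeR adjusted p = 0.0179), and *Ccn1* was the fourth.

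In the list as a whole the genotypes did not overlap in 6 of the 10 genes, beside 49.7% of all tested genes. *Fos* (log2 fold change 0.09), *Egr1* (-0.29) and the rest did not pass the test, and the median of the 10 was -0.24. Only *Egr2* kept its call whichever library was left out. Without cko 3 the calls of *Egr3*, *Junb* and *Ccn1* were lost, without cko 2 those of *Junb* and *Ccn1*, and without ctrl 1 or cko 1 that of *Ccn1*, with adjusted p, at the highest, of 0.0597 for *Egr3*, 0.0904 for *Junb* and 0.124 for *Ccn1*.

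Genes of the mitochondrial machinery described as GABP-regulated made up the last list. None of the 10 passed edgeR's test (0 calls, beside 16.4% of all tested genes, with 1 at an unadjusted p under 0.05, and 0 by DESeq2), and their log2 fold changes ran from -0.19 for *Tfb2m* to 0.31 for *Cox7c*, with a median of 0.08.

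**Figure D4:**
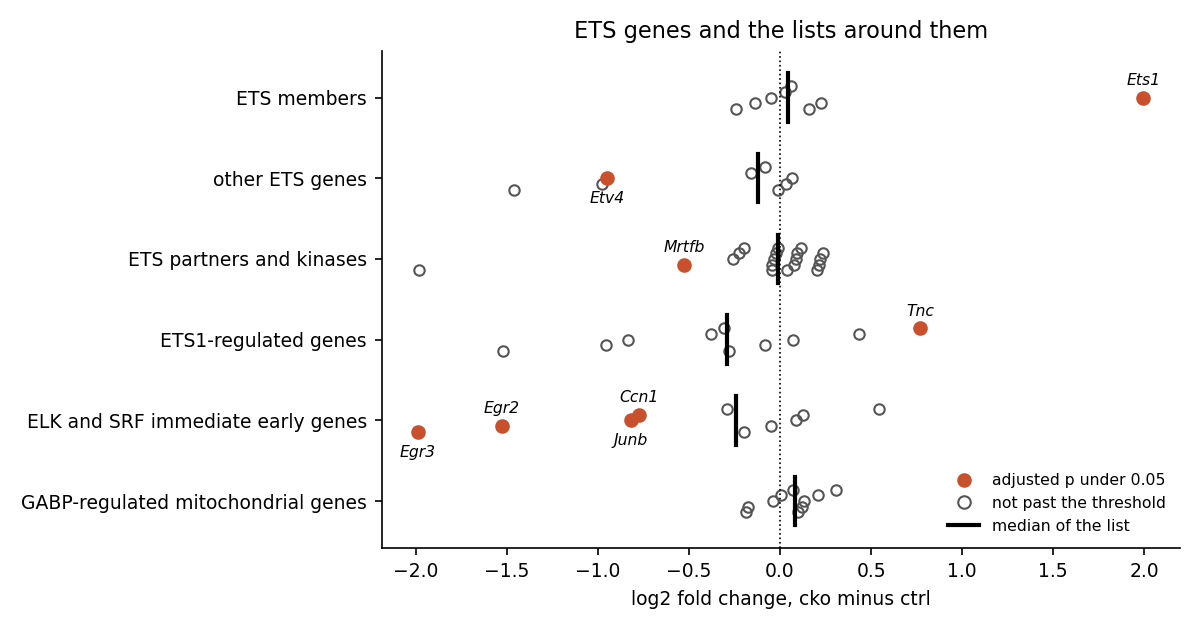
Fitted log2 fold change (cko minus ctrl) of each tested gene in 6 lists, filled where the adjusted p was under 0.05 and open otherwise, with a black bar at each list's median. *Ets1* at 1.996 is the only filled point of its list, *Egr3*, *Egr2*, *Junb* and *Ccn1* are filled on the negative side, and no point of the GABP list is filled.

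The 5 tested genes whose profile over the 5 libraries lay closest to that of *Ets1* were *Itga4*, *Gm14296*, *Cacna1g*, *Nrp2* and *Clmp*. Closeness was the Euclidean distance of log2 CPM, with each gene centred on its own mean over the 5 libraries, and ran from 0.36 for *Itga4* to 0.44 for *Clmp*, where the median of 16709 genes was 2.24. *Itga4*, the integrin alpha-4 chain, was at 14.8 and 14.6 CPM in ctrl and 43.1, 61.04 and 59.5 CPM in cko. *Nrp2*, a receptor for semaphorins and VEGF, was at 30.6 and 34.5 CPM in ctrl and 101, 127 and 148 CPM in cko. In both genes the cko libraries were above both ctrl libraries, with cko 1 the lowest of the 3.

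*Cacna1g*, a T-type calcium channel subunit, was at 8.04 and 6.14 CPM in ctrl and 18.9, 23.2 and 23.7 CPM in cko. *Clmp*, an adhesion molecule, was at 2.45 and 2.19 CPM in ctrl and 6.38, 9.90 and 10.4 CPM in cko. *Gm14296* had between 12 and 61 counts per library and belongs to a family of near-identical genes, so its count is uncertain. These genes were picked for likeness to *Ets1*, and their levels are a description.

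**Figure D5:**
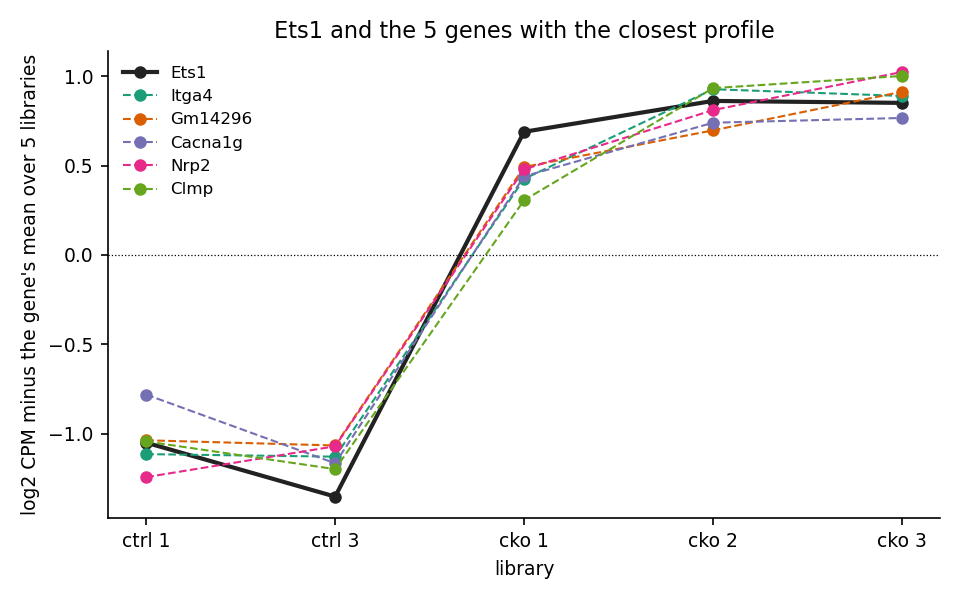
Log2 CPM of *Ets1* (solid) and the 5 genes with the closest profile (dashed) in each of the 5 libraries, each minus the gene's own mean over the libraries. All 6 genes lie below their mean in both ctrl libraries and above it in all 3 cko libraries, since likeness to *Ets1* selected them.

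Other features of the cultures differed between the same libraries. All 8 proliferation markers were higher in cko at an adjusted p under 0.05 by edgeR's test, beside 7.86% of all tested genes. Among them *Mki67* was at 254 and 269 CPM in ctrl and 539, 705 and 683 CPM in cko (log2 fold change 1.297 ± 0.13 SE, edgeR adjusted p = 0.0019). The part of these markers in the *Ets1* difference was not tested. The 10 endothelial markers with a row summed to 5.77 and 8.70 CPM in ctrl and to 6.94 to 9.24 CPM in cko. The largest part was *Kdr*, at 3.71 and 4.11 CPM in ctrl and 4.70, 4.67 and 6.43 CPM in cko. Every cko library of *Kdr* was above both ctrl libraries, but it did not pass the test. *Cdh5* was at 0 and *Tie1* at no more than 0.043 CPM, and 0 of 5 tested endothelial markers were called, beside 16.4% of all tested genes. The 11 markers of microglia and other leukocytes, nearly all of them myeloid and none specific to lymphocytes, summed to 0.568 and 1.81 CPM in ctrl and to 0.276 to 0.671 CPM in cko, with *Cx3cr1*, *Tmem119* and *Itgam* at 0. Their part in the *Ets1* difference was not tested.

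The 7 pericyte markers summed to 2.32 and 1.39 CPM in ctrl and to 0.827 to 1.33 CPM in cko. The 6 meningeal fibroblast markers summed to 12.9 and 18.8 CPM in ctrl and to 3.97 to 5.65 CPM in cko, most of it *Foxc1*, which was lower in cko. At an adjusted p under 0.05 by edgeR's test, 4 of 8 oligodendrocyte lineage markers were lower and 2 higher in cko. Of 6 astrocyte markers 3 were lower and 0 higher, and of 8 neuronal markers, 7 of them tested, 1 was lower and 2 higher. Among all tested genes 8.57% were lower and 7.86% higher. The part of these markers in the *Ets1* difference was not tested.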

How the data were processed

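The authors checked the reads with FastQC, filtered them with NGSQC and aligned them with HISAT2, and deposited raw counts per Ensembl gene for 6 columns. The labels name GRCm39 and the study's methods an earlier mouse build, and the counting tool, annotation and strand setting are not given in the sources used here. Symbols, positions and exon lengths came from GENCODE M21 (GRCm38), which matched 31836 of 32493 IDs. Counts of the 5 libraries used, without ctrl 2, were filtered (filterByExpr, 16710 genes left) and TMM-normalized. They were fitted with edgeR 4.0.16 (quasi-likelihood, R 4.3.3) with genotype as the only term. P-values were adjusted by the Benjamini-Hochberg method over all tested genes, with a threshold of 0.05. The members and lists were chosen with earlier results of these data known. All 10 chosen genes, called genes of the other ETS list, up to 3 called genes in each direction per further list, and the 5 profiles closest to *Ets1* (prior count 2) were named. Alternatives were DESeq2 1.42.0, RLE scaling, other filters, leaving out libraries, a replicate block, all 6 columns and the study's threshold. Floors of 3 counts and intervals cover counting or library error only.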

Additional observations from a re-analysis of the deposited data

How the results depend on the processing

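As a description of genes chosen on this contrast, and not as a test, 1 of the 8 fitted ETS genes was under the threshold with the standard settings, 3 were with all 6 columns (adding *Elf1* and *Elf2*, whose spread is understated by the averaged column), and 1 to 2 were with 1 library left out (*Gabpa* was added without ctrl 1). Calls with 1 library left out ran from 0 to 2 for the other ETS genes, 0 to 3 for partners and kinases, 0 to 4 for ETS1-regulated genes, 1 to 4 for immediate early genes, 0 to 3 for GABP-regulated genes, and 733 to 3743 for all genes (2746 with all 5 libraries). With all 6 columns, partners and kinases had 5 calls, GABP-regulated genes 1 and all genes 5659. Without the count filter these were 2 for partners and kinases, 3 for ETS1-regulated genes and 1 for GABP-regulated genes, and DESeq2 called 2 partners. Every ETS1-regulated gene that an alternative added to *Tnc* was lower in cko, as *Cdkn1a* and *Spp1* were without the filter. The study's threshold was an absolute log2 fold change over 0.9 with a p-value under 0.01 by DESeq2. Applied to the edgeR fit of 5 libraries with unadjusted p, it gave 0 ETS1-regulated genes, 2 immediate early genes and 1095 genes in all. Its 1 call among partners and kinases was *Runx1*, in place of *Mrtfb*. The numbers of ctrl and cko libraries were not shown to pair them. The deviations of the libraries numbered 1 and of those numbered 3 correlated at 0.143 and 0.0507. These values cannot decide on pairing, since the deviations of 2 ctrl libraries from their mean are mirror images. With a replicate block, 2 ETS1-regulated genes, 2 immediate early genes and 1983 genes in all were called, and the value for *Etv4* was -0.91. With 1 library left out, log2 fold changes changed sign for *Elk1* and *Elk3*, as given above, and within -0.078 to 0.048 for *Elk4*, -0.17 to 0.27 for *Etv1* and -0.42 to 0.15 for *Etv5* (positive for *Elk4* and *Etv5* and negative for *Etv1* without ctrl 3, and -0.03 for *Etv1* without cko 3). The cause of these shifts was not tested. *Erg* did not exceed the floor in any library, and *Fli1* had 3 to 6 counts, so depth limits what their values can show.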
